A study of Mus musculus with 8 samples.

Results

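The genes described here encode 10 enzymes of mitochondrial fatty acid beta-oxidation: Cpt1a, Cpt2, Acadvl, Acadl, Acadm, Acads, Hadha, Hadhb, Hadh and Etfdh. They were chosen by their place in the pathway, although earlier results of these data were known at the time. All 10 were found among the 18749 mouse genes with a matched probe, and all 10 were among the 14145 genes tested. RNA was measured from the No. 4 mammary gland of dams lacking Th-POK (KO) and of wild-type dams (WT) at lactation day 1, with 4 dams of each genotype and 1 dam per array. All were females of the C57/Bl6 background, age matched and fed a standard chow, and the labels give no age in weeks. The comparison asks how the loss of Th-POK, a zinc finger transcription factor encoded by Zbtb7b, bears on RNA levels in the gland at the onset of lactation. The KO line came from another laboratory, and the sources name no promoter or Cre that would limit the loss of Th-POK to one cell type. The whole gland was extracted, so a change in the number of cells of one type and a change in the RNA of each such cell cannot be told apart.

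Beta-oxidation breaks fatty acids down in mitochondria, and each turn of the cycle removes an acetyl-CoA unit from the chain. A carnitine shuttle first carries long-chain fatty acids across the mitochondrial membranes. Acyl-CoA dehydrogenases sorted by chain length then begin each turn, a hydratase, a hydroxyacyl-CoA dehydrogenase and a thiolase complete it, and electron transfer flavoprotein passes the electrons from the first step to the respiratory chain. The lactating gland is known for the opposite process, since its alveolar cells make milk fat at a high rate, while the adipocytes of the gland store fat and can oxidise it.

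Each value is a log2 signal after quantile normalization of the arrays, and a difference is KO minus WT on that scale, so that a difference of 1 is a doubling. Values are compared between arrays for one probe and never between genes, since probes differ in brightness. A gene was called higher or lower where the limma fit over all genes gave a Benjamini-Hochberg adjusted p under 0.05. The Zbtb7b probe was well above background on all 4 WT arrays, at 9.90, 10.42, 10.13 and 10.23, and on none of the KO arrays, at 1.55, 1.56, 1.65 and 1.60. It was at least 81.5-fold lower in KO, with an adjusted p from limma of 5.72e-09. Between 66.8% and 75.3% of the probes on an array were well above background. The WT arrays were all on slide 1 and the KO arrays all on slide 2, so genotype and slide cannot be told apart in any comparison given here. All 7 markers of alveolar and luminal epithelium were well above background on all 8 arrays. WT2 held the lowest value of the 8 arrays for 8 of the 10 genes, all but Acads and Hadh, against 20.2% of all genes. KO4 held the lowest KO value for another set of 8, all but Acadm and Etfdh, against 30.3% of all genes.

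Of the 10 genes, 2 rose in KO and 0 fell. The 2 were Etfdh, which hands electrons from beta-oxidation to ubiquinone, and Acadm, the medium-chain acyl-CoA dehydrogenase. Among all genes tested, 7.54% were called higher and 8.94% lower, which makes 16.5% in either direction. At an unadjusted p under 0.05 the count was 4 higher and 0 lower, against 16.7% of all genes higher and 19.6% lower at that threshold. Leaving out 1 array moved the count called higher to 0 without KO3, 1 without WT2, WT3, KO1 or KO2, 3 without WT1 and 4 without KO4. Of the 14145 genes tested, 266 were called higher without KO3 and 387, 472, 370 and 452 without WT2, WT3, KO1 and KO2. The number was 1389 without WT1 and 1016 without KO4, against 1066 with all 8 arrays. With a block on replicate number, 1 of the 10 and 1238 of all genes were called higher. The mean was higher in KO for 9 of the 10 genes, all but Hadh, against 47.6% of all genes (the other 52.4% had a lower mean), and the median difference of the 10 was 0.47, against -0.024 for all genes tested. Etfdh and Acadm were also the 2 genes for which every KO array lay above every WT array, a pattern that 11.1% of all genes showed in that direction, 12.9% in the other and 24% in either.

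**Figure D1:**
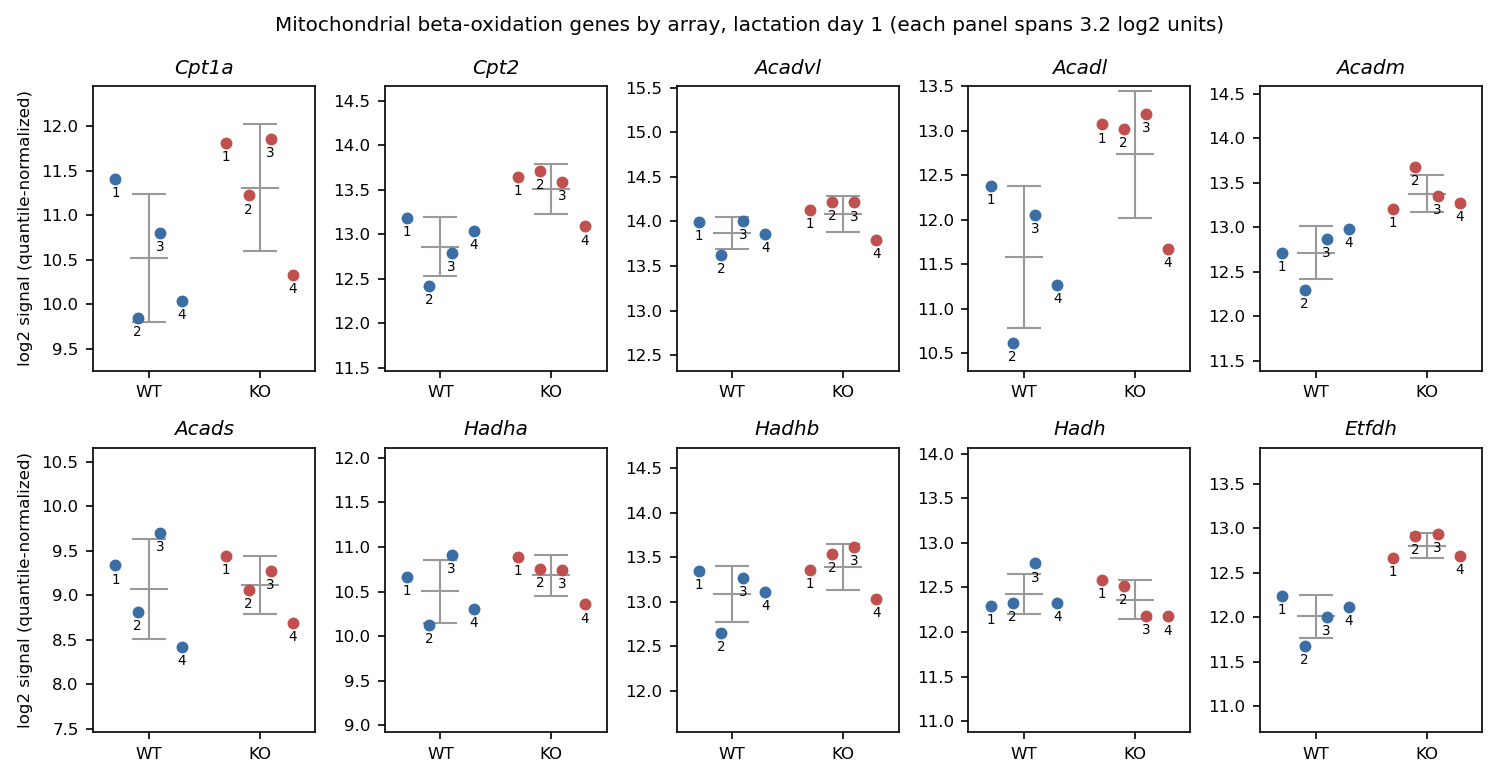
Log2 signal of the 10 genes on each array, in 1 panel per gene, with WT arrays in blue and KO arrays in red, the replicate number under each point, and grey bars for the mean and 1 SD of 4 arrays. Every panel spans the same number of log2 units, and the genotypes are separate for Acadm and Etfdh.

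The carnitine shuttle was represented by Cpt1a, which joins long-chain fatty acids to carnitine at the outer mitochondrial membrane and is inhibited by malonyl-CoA, and Cpt2, which releases them again inside. Neither gene was called. Cpt1a stood at 11.41, 9.85, 10.80 and 10.04 on the WT arrays and at 11.82, 11.22, 11.86 and 10.33 on the KO arrays. WT1 was above KO2 and KO4, so the genotypes overlapped. The difference was 0.78 (SE 0.43, 95% interval -0.20 to 1.77, adjusted p = 0.222 in limma). A dimmer second probe of Cpt1a gave 0.92 (SE 0.41, adjusted p = 0.151 over all probes in limma). Cpt2 stood at 13.18, 12.42, 12.79 and 13.04 in WT and at 13.64, 13.71, 13.59 and 13.09 in KO. KO1 to KO3 were above every WT array, and KO4 lay below WT1. The difference of 0.65 (SE 0.20, 95% interval 0.19 to 1.10) had an adjusted p of 0.0566 in limma. Without KO4 it was 0.79 with an adjusted p of 0.0331, and without WT1 it was 0.76 with an adjusted p of 0.0382, so that leaving out either array brought Cpt2 past the threshold.

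The acyl-CoA dehydrogenases open each turn of the cycle and differ in the chain length they take, from very long (Acadvl) through long (Acadl) and medium (Acadm) to short (Acads). All 4 had a higher mean in KO, and 1 of them, Acadm, was called. Acadm stood at 12.71, 12.30, 12.86 and 12.98 in WT, a mean of 12.71 ± 0.30 (SD, n = 4), and at 13.21, 13.67, 13.35 and 13.28 in KO, a mean of 13.38 ± 0.21 (SD, n = 4). The genotypes did not overlap, and the lowest KO array was 0.23 above the highest WT array. The rise was 0.66 (SE 0.17, 95% interval 0.27 to 1.06), or 1.58-fold, with an adjusted p of 0.0361 in limma. The call depended on single arrays and on the fit. It was lost without WT2 (adjusted p = 0.0735), WT3 (0.0640), KO1 (0.0637), KO2 (0.0835) or KO3 (0.0875), all in limma and in the fit that blocked on replicate number (0.0648).

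Acadl had the largest difference of the 10 genes and was not called. It stood at 12.38, 10.62, 12.06 and 11.27 in WT and at 13.07, 13.02, 13.19 and 11.67 in KO. The first 3 KO arrays lay close together above all WT arrays, while KO4 fell among the WT values. The difference was 1.16 (SE 0.45, 95% interval 0.12 to 2.19, adjusted p = 0.106 in limma), and without KO4 it was 1.51 with an adjusted p of 0.0417. Acadvl stood at 13.99, 13.62, 14.01 and 13.86 in WT and at 14.13, 14.22, 14.21 and 13.79 in KO. Its difference of 0.22 was small beside those of Acadl and Acadm (SE 0.14, 95% interval -0.10 to 0.53, adjusted p = 0.285 in limma), and KO4 again lay below 3 of the WT arrays. Acads ranged from 8.42 to 9.70 in WT and from 8.69 to 9.44 in KO. Its highest and its lowest array were both WT, and the difference of 0.048 (SE 0.28, 95% interval -0.60 to 0.69, adjusted p = 0.917 in limma) had no settled sign.

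**Figure D2:**
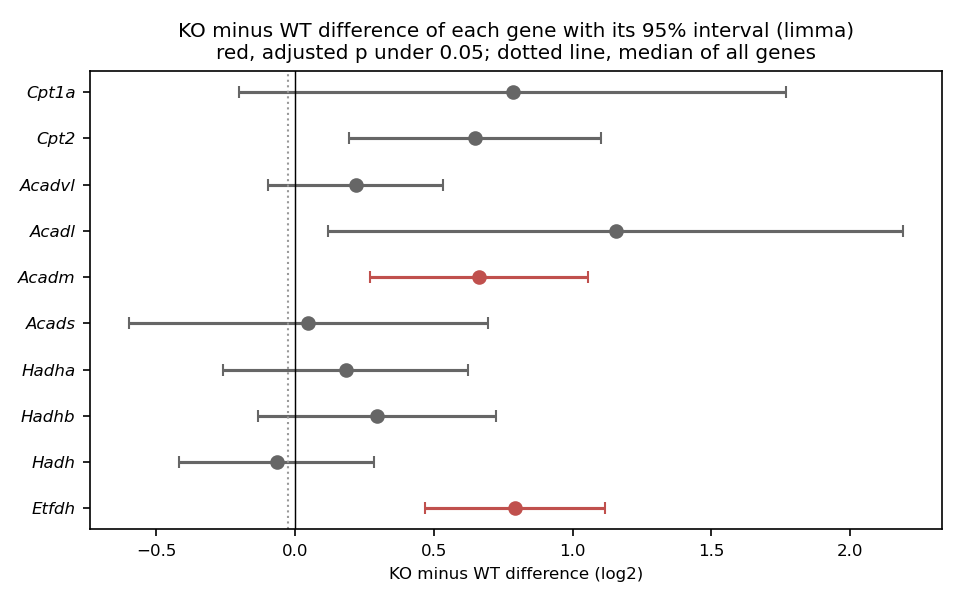
KO minus WT log2 difference of each of the 10 genes (points) with its 95% interval from limma (bars), red where the adjusted p was under 0.05. The intervals of Cpt2, Acadl, Acadm and Etfdh lie above 0, and the dotted line marks the median of all genes tested at -0.024.

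At the later steps of the cycle the differences lay between -0.066 and 0.30. Hadha and Hadhb encode the alpha and beta subunits of the mitochondrial trifunctional protein, which carries out the hydratase, hydroxyacyl-CoA dehydrogenase and thiolase steps on long chains, and Hadh is the hydroxyacyl-CoA dehydrogenase for shorter chains. None of the 3 was called. Hadha stood at 10.67, 10.13, 10.91 and 10.30 in WT and at 10.89, 10.75, 10.74 and 10.35 in KO, a difference of 0.18 (SE 0.19, 95% interval -0.26 to 0.62, adjusted p = 0.525 in limma). Hadhb stood at 13.35, 12.65, 13.26 and 13.11 in WT and at 13.36, 13.54, 13.62 and 13.03 in KO, a difference of 0.30 (SE 0.19, 95% interval -0.13 to 0.72, adjusted p = 0.288 in limma). For both subunits WT2 was the lowest array and KO4 the lowest of KO. Hadh stood at 12.30, 12.32, 12.77 and 12.33 in WT and at 12.59, 12.52, 12.18 and 12.17 in KO. It was the single gene of the 10 with a lower mean in KO, at -0.066 (SE 0.15, 95% interval -0.42 to 0.29, adjusted p = 0.785 in limma), and without WT3 that difference was 0.047. The intervals of Hadh and Hadha reach no further than 0.42 below and 0.62 above 0.

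Etfdh encodes the inner membrane enzyme that takes electrons from electron transfer flavoprotein and reduces ubiquinone, and it showed the clearest separation of the 10 genes. It stood at 12.24, 11.68, 12.00 and 12.11 in WT, a mean of 12.01 ± 0.24 (SD, n = 4). In KO it stood at 12.67, 12.91, 12.94 and 12.69, a mean of 12.80 ± 0.14 (SD, n = 4). Every KO array was at least 0.43 above the highest WT array, and KO4 did not stand apart from the other KO arrays. The rise was 0.79 (SE 0.14, 95% interval 0.47 to 1.12), or 1.73-fold, with an adjusted p of 0.0149 in limma. A dimmer second probe of Etfdh rose by 0.59 (SE 0.16, adjusted p = 0.0408 over all probes in limma). The call held in 16 of 17 alternative analyses, and without KO3 the adjusted p was 0.0505.

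**Figure D3:**
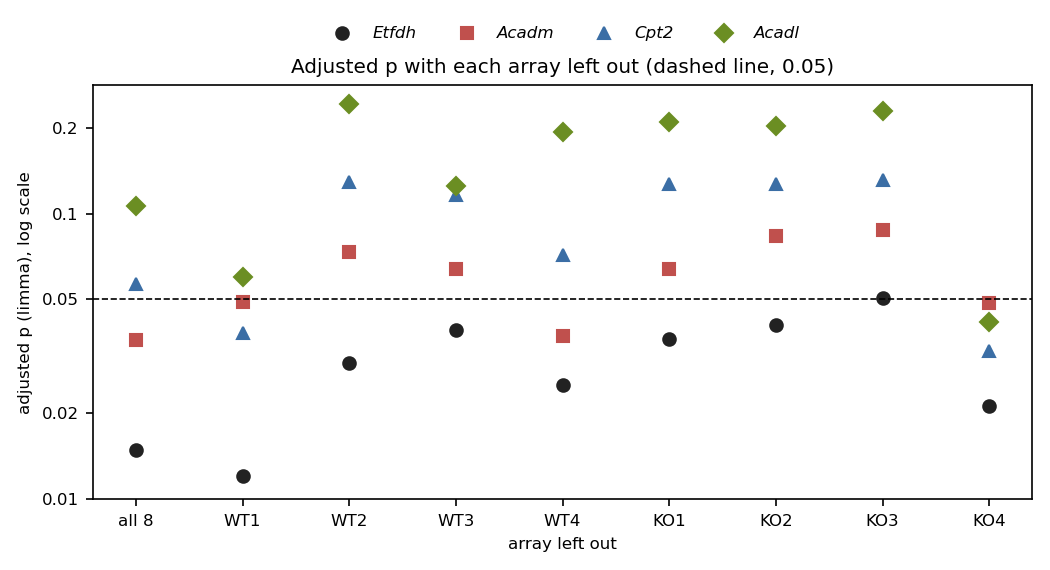
Adjusted p from limma (log scale) for Etfdh, Acadm, Cpt2 and Acadl with all 8 arrays and with each array left out in turn, and a dashed line at 0.05. Etfdh lies under the line except without KO3 (0.0505), and Acadl lies under it without KO4 alone.

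Arrays of the same replicate number were also set side by side. The KO array was above the WT array in 4 of 4 pairs for Cpt1a, Cpt2, Acadl, Acadm and Etfdh, in 3 of 4 for Acadvl, Acads, Hadha and Hadhb, and in 2 of 4 for Hadh. For Acadl the differences by number were 0.69, 2.40, 1.13 and 0.40. For Etfdh they were 0.43, 1.24, 0.93 and 0.58. The difference of number 2, which holds WT2, was the largest of the 4 for both genes. Between arrays of one genotype, the 10 genes tended to be high and low together, with a median Pearson r of 0.71 over the 45 pairs of genes, 8 arrays and deviations from the genotype means. This is a description, and all pairs share the same 8 arrays.

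**Figure D4:**
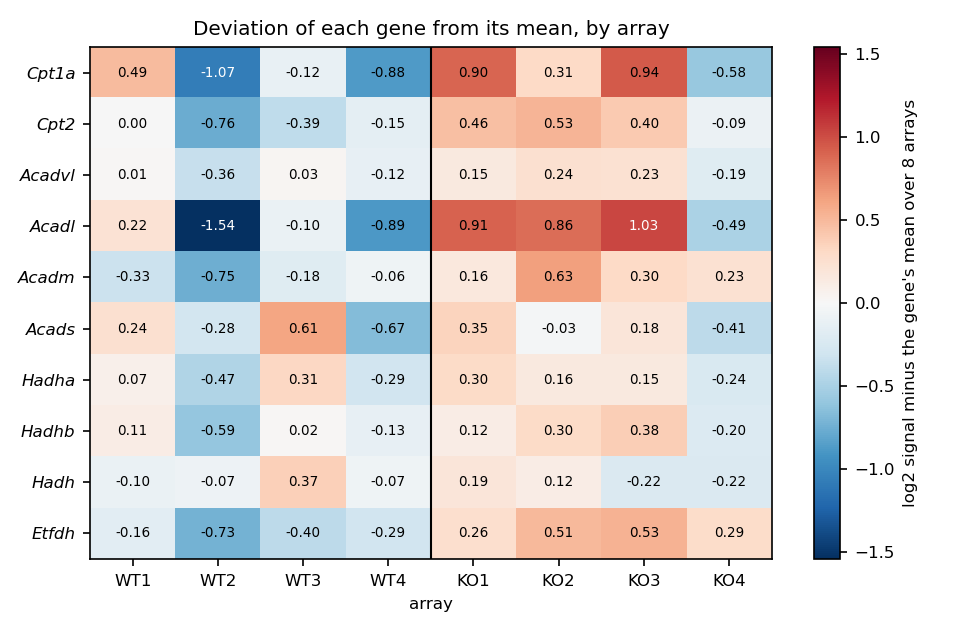
Log2 signal of each gene minus its mean over the 8 arrays, with genes in rows and arrays in columns, blue for below and red for above the mean. WT2 is below the mean for all 10 genes and furthest for Acadl (-1.54), and KO1 is above it for all 10.

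The promoters of the 10 genes were read from RefSeq, build GRCm38.p6, as the 250 bases before each gene's start, and all 10 had an entry. Motifs were searched as exact letters on both strands. One was the core site AGGTCA shared by many nuclear receptors. The direct repeat of the PPAR receptors, which are known to act on beta-oxidation genes, is that core site written again after 1 base of any kind (N), and the element of the oestrogen-related receptors is the core site with TCA directly before it, so both contain it. The NRF1 motif is GCGCA followed by N and GCGC, and the SP1 motif is GGGCGG. The direct repeat was in 0 of the 10 windows and in 0.0335% of 32851 windows of all genes, and the oestrogen-related receptor element was in 0 of the 10 and in 0.387% of all. The core site was found in 3 windows (Acadm, Acadvl and Cpt1a), against 14.0% of all. GGGCGG was found in 7 windows, all but Acadvl, Acadm and Etfdh, against 32.7% of all, and the NRF1 motif in 1, Etfdh, against 3.74% of all. The 10 windows were richer in G and C than those of all genes (median 59.2% against 52.4%), and the motif counts were not adjusted for this. The 3 windows below are those of the genes that rose, Etfdh and Acadm, and of Hadhb, which was not called, with the matched letters in capitals (the NRF1 motif in Etfdh, the core site on the other strand in Acadm and GGGCGG in Hadhb).
Etfdh chr3:79628768-79629017, minus strand: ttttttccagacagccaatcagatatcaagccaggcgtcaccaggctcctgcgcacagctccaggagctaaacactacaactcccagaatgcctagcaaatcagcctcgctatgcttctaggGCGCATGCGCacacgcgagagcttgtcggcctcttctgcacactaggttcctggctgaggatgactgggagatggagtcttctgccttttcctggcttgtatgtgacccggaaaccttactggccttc
Acadm chr3:153944644-153944893, minus strand: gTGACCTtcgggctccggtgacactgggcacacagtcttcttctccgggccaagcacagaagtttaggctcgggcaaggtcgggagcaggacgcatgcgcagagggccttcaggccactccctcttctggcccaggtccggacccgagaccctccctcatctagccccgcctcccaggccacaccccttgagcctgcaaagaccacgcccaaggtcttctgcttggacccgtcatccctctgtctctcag
Hadhb chr5:30155003-30155252, plus strand: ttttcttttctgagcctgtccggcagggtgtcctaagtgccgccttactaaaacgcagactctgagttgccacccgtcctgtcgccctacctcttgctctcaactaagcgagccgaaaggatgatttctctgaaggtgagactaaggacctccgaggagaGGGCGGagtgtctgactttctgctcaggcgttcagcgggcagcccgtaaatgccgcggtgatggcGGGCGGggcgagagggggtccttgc
Etfdh and Acadm, the genes that rose, share none of these motifs in their windows. The match in Etfdh lies 128 to 119 bases before the start and reads the same on both strands. Hadha and Hadhb are transcribed away from each other with 272 bases between their starts, so their windows overlap, and neither gene was called. The GGGCGG match of Hadha is the same site as the Hadhb match 90 to 85 bases before its start, so it was counted for both genes. A match of letters is a description and shows no binding.

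The other genes of the pathway and of its neighbours were taken as lists. Among 16 other genes of mitochondrial beta-oxidation, all tested, 10 had a higher and 6 a lower mean in KO. Of these 16, 0 were called higher and 1 lower (all genes, 7.54% and 8.94%), and the median difference was 0.13. The gene that fell was Mecr, at -0.71 (adjusted p = 0.0370 in limma), which stands in this list although it is known as a reductase of mitochondrial fatty acid synthesis. The other 15 genes were not called in either direction. Its call was lost without any 1 of WT2, WT3, WT4, KO1, KO2 or KO3, with adjusted p from 0.0685 to 0.0994. Of 10 genes that make up or feed electron transfer flavoprotein 8 were tested, of which 3 had a higher and 5 a lower mean, and 0 were called at an adjusted p under 0.05, with 0 higher and 3 lower at an unadjusted p under 0.05 (all genes, 16.7% and 19.6%). The smallest p was that of Acad8, a dehydrogenase of valine breakdown, at -0.31 (adjusted p = 0.0583 in limma). With the replicate block, 3 of these 8 were called lower (all genes, 1525 of 14145 in that fit). The median of this list was -0.37, while Etfdh, which acts directly after it, rose by 0.79.

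Fatty acid activation and malonyl-CoA control held the largest decrease of the lists. Of its 9 genes 8 were tested, 0 were called higher and 2 lower (all genes, 7.54% and 8.94%), and the median was -0.22. Acacb, the acetyl-CoA carboxylase whose malonyl-CoA is known to hold back Cpt1, stood at 11.93, 13.60, 12.91 and 13.67 in WT and at 10.57, 12.32, 10.35 and 11.46 in KO. KO2 was above WT1, so the genotypes overlapped. It fell by 1.85 on the log2 scale (SE 0.51, adjusted p = 0.0428 in limma), and the call was lost without any 1 of WT2, WT3, WT4, KO1, KO3 or KO4, with adjusted p from 0.0570 to 0.115. Acsl5, a long-chain acyl-CoA synthetase, fell by 0.43 (adjusted p = 0.0387 in limma), and its call was lost without any array but WT1, with adjusted p from 0.0554 to 0.0973.

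Of 5 ketone body genes, 0 were called, with 0 higher and 1 lower at an unadjusted p under 0.05 (all genes, 16.7% and 19.6%), and the median was -0.42. The smallest p was that of Acat1, the mitochondrial acetoacetyl-CoA thiolase, at -0.42 (adjusted p = 0.114 in limma, and 0.0384 without WT1). With the replicate block, 2 ketone body genes were called lower (all genes, 1525 of 14145 in that fit). Of 16 citric acid cycle genes, taken for mitochondrial enzymes outside beta-oxidation, 14 were tested. Of the 14, 12 had a lower mean in KO (all genes, 52.4%). In this list 0 were called higher and 1 lower (all genes, 7.54% and 8.94%), and the median was -0.20. The gene that fell was Cs, citrate synthase, at -0.60 (adjusted p = 0.0446 in limma), and its call was lost without any array but KO4, with adjusted p from 0.0526 to 0.115.

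**Figure D5:**
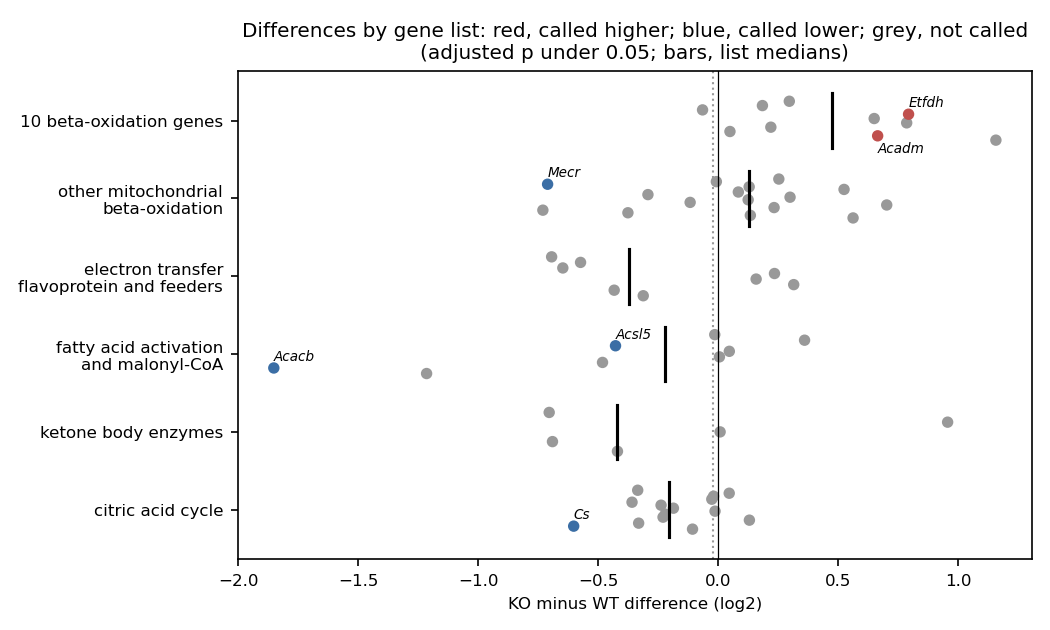
KO minus WT log2 difference of every tested gene of the 6 lists (points, spread vertically for legibility), red where called higher, blue where called lower and grey where not called, with a black bar at each list's median. The 10 beta-oxidation genes have a median of 0.47 and citric acid cycle genes one of -0.20, and the dotted line is the median of all genes.

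Markers of the cell types of the gland moved beside these values, and their part in them was not tested. Of 8 white adipocyte markers, 7 had a higher mean in KO and 2 were called higher (all genes, 47.6% and 7.54%), with a median difference of 0.54. The 2 were Plin1 (a lipid droplet protein) and Cfd (the secreted protein adipsin). The mean level of the 8 ran from 13.17 to 13.80 in WT, lowest in WT2, and from 13.74 to 13.98 in KO, lowest in KO1. Of 4 brown adipocyte markers, 3 had a higher mean in KO and 0 were called. At an unadjusted p under 0.05, 1 was higher (Cox8b, at 1.95, adjusted p = 0.110 in limma) and 0 lower (all genes, 16.7% and 19.6%). The median difference of the 4 was 1.74, and they varied widely, with a mean level from 5.79 to 10.44 in WT and from 8.41 to 10.97 in KO. Ucp1, which defines brown fat, was at 3.02, 1.74, 11.00 and 11.09 in WT and at 9.00, 12.85, 11.43 and 5.80 in KO, and was not well above background on 2 WT arrays. Elovl3, at 2.72, 1.55, 5.74 and 7.08 in WT, was also not well above background on 2 WT arrays. Both were kept through the KO arrays alone, so the median rests in part on dim values. WT2 was the lowest WT array for Ucp1 and Elovl3, and WT1 for Cox7a1 and Cox8b. The lowest KO array was KO4 for Ucp1, KO1 for Elovl3 and KO3 for Cox7a1 and Cox8b.

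Of 7 markers of alveolar and luminal epithelium, 5 had a higher mean and 2 were called higher, Krt18 and Epcam (all genes, 47.6% and 7.54%). Mean levels of the 7 ran from 15.94 to 16.09 in WT and from 16.06 to 16.20 in KO. All 5 fibroblast markers had a higher mean in KO and 1, Dcn, was called higher (all genes, 47.6% and 7.54%). Mean levels of the 5 ran from 14.10 to 14.41 in WT and from 14.41 to 14.98 in KO. Of 6 skeletal muscle markers 4 were tested, of which 2 had a higher and 2 a lower mean, with a median difference of 0.22. Of these, 1 was called, Tnnt3, which fell by 1.28 on the log2 scale (all genes, 8.94% called lower). Myl1 had a difference of 1.08 and Acta1 one of 0.48. No marker of basal epithelium (5 tested), macrophages (4 tested) or endothelium (5 tested) was called. Of 5 T cell markers 1, Cd3e, was called lower, and of 4 B cell markers 1, Cd79b, was called higher (all genes, 8.94% and 7.54%).

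The genes whose pattern over the 8 arrays was most like the mean of the 10 were Acaa2 (r = 0.987), F420014N23Rik (0.985), Slc27a1 (0.973), Tbc1d22a (0.971) and Tmem230 (0.971). These are Pearson correlations with the mean of the 10 genes, each centred and divided by its SD, and they include the difference between genotypes. Acaa2 is the thiolase of the last step of the cycle and Slc27a1 a fatty acid transport protein. Acaa2 stood at 14.35, 13.50, 14.29 and 13.77 in WT and at 14.64, 14.83, 14.74 and 13.95 in KO. It was lowest in WT2, and KO4 was the lowest of KO, as for most of the 10. Its difference was 0.56 (SE 0.25, adjusted p = 0.148 in limma), and none of the 5 genes was called.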

How the data were processed

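The scanner output of 8 one-colour arrays was used. The authors deposited intensity values that Agilent Feature Extraction 10.7 had background-subtracted, and separately a table of log2 values that the authors had quantile-normalized in GeneSpring. That table followed the scanner signals on the log2 scale (r above 0.99 on every array) and served as an alternative. Here the processed intensities were log2-transformed, quantile-normalized and compared with limma 3.58.1 in R 4.3.3, with no covariate. Spots marked as outliers (64 to 100 per array) were left out. Of 41174 probes, 27479 matched 18749 symbols through the RefSeq gene table of GRCm38.p6. Probes were kept if, in 1 genotype or both, all 4 arrays showed them well above background, the brightest probe stood for its gene, and p-values were adjusted over 14145 genes. For Zbtb7b, dim in KO, the fold is a lower limit against the lowest spots well above background. The number of arrays limits the precision. The script was tested on simulated data.

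The 10 genes and all lists were chosen with earlier results of these data known. Genes named are the 10, every called gene and the smallest p of each pathway list, the 5 genes most like the 10, Zbtb7b and markers where their list is described. Labels number the dams of each genotype 1 to 4, and the methods mention replicate sets but not what links the members of a set. Array deviations from their genotype's mean correlated between dams of one number at r = 0.22, 0.16, 0.30 and 0.28, so the numbers were taken as pairing the samples. The main fit nevertheless leaves this pairing out. Unless the replicate block is named, differences, intervals and calls come from a fit without it. With the block, 1 of the 10 genes was called higher. Alternatives were the authors' table, scaling to the 75th percentile, normexp background correction (on the median signal, chosen after seeing the data), other probe filters and summaries, the methods' t-test, a replicate block and leaving out each array.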

Additional observations from a re-analysis of the deposited data

Results flagged for a closer look

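Each gene of the text was examined in each genotype for an array lying far from the other 3, over 32 groups of 4 arrays for 16 genes. Chance alone sets about 1 in 20 such groups apart, and 2 were. Acadl stood at 11.67 in KO4, where the other KO arrays lay between 13.02 and 13.19. Hadh stood at 12.77 in WT3, where the other WT arrays lay between 12.30 and 12.33.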

How the results depend on the processing

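Of the 10 genes, 2 were called higher. The count was 1 with scaling to the 75th percentile, with the methods' t-test, with no filter on dim probes and with the replicate block, and from 0 (without KO3) to 4 (without KO4) on leaving out 1 array, with 3 without WT1 and 1 without WT2, WT3, KO1 or KO2. The count called lower was 0 throughout. Over all genes, the number called higher was 1066 in the main fit and 1002 with scaling to the 75th percentile. It was 594 with the methods' t-test, 788 (of 18717) with no filter on dim probes and 1238 with the replicate block. On leaving out 1 array it ran from 266 (without KO3) to 1389 (without WT1), with 1016 without KO4. The median difference of the 10 genes kept its sign, from 0.33 (without WT2) to 0.56 (without KO4). Acadm was the gene lost in each of the 4 settings with a count of 1 that kept every array, with adjusted p of 0.0502, 0.0678, 0.0530 and 0.0648. With the replicate block in limma as a fit of the pairing, Etfdh kept an adjusted p of 0.0290 and Acadm was lost (0.0648). The other 8 of the 10 genes stayed uncalled. Outside the 10, the call of Acsl5 was also lost (0.0541). With the block in limma, the adjusted p of Cpt1a went from 0.222 to 0.0505 and that of Acadl from 0.106 to 0.0598. That of Cpt2 went the other way, from 0.0566 to 0.0775. On leaving out 1 array, the difference of Acads ranged from -0.17 to 0.26, with -0.059 without KO1, -0.0051 without KO3, -0.036 without WT2 and -0.17 without WT4, and that of Hadh from -0.14 to 0.047, the latter without WT3. Over all genes the number called was 2331, against 1390 in the methods' t-test and 515 (without KO3) to 3070 (without WT1) on leaving out 1 array. Genes called lower ranged over the alternatives from 0 to 3 among those feeding electron transfer flavoprotein, from 0 to 2 in the malonyl-CoA, ketone body and citric acid cycle lists, and from 0 to 1 in the other beta-oxidation list. Among all genes, the number called lower ranged from 249 to 1681. The cause of these changes was not tested. The normexp correction planned on the mean signal was not run, and the one on the median signal, chosen after seeing the data, gave the same 2 calls by count. With 4 arrays of each genotype, intervals such as that of Cpt1a span almost 2 log2 units, and slide cannot be separated from genotype.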
